A study of Drosophila melanogaster with 4 samples.

Results

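Broad peaks of histone H3 monomethylated at lysine 4 (H3K4me1) were examined in S2-DRSC cells, a male Drosophila melanogaster line derived from late embryos. The broad peaks were the peaks of 4000 bases or more on the 6 chromosome arms 2L, 2R, 3L, 3R, 4 and X, where width is the end minus the start given by the authors. There were 391 such peaks among 8019 arm peaks and 11173 peaks in all. Of these, 22 had widths inside a range of 100 bases near 7.5 kb, a recurring width, and are described apart from the other 369. All 391 were chosen by their measured width. Those 369 are called the other broad peaks, and the 7628 arm peaks under 4000 bases are called the narrower peaks.

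The series held 2 ChIP libraries, made by immunoprecipitating formaldehyde-fixed, sonicated chromatin with a polyclonal rabbit antibody to H3K4me1, and 2 libraries of input DNA, which is chromatin not precipitated. One list of peaks was deposited for the series, on FlyBase release 5, so each value below belongs to a peak of that list and carries no spread over libraries. The read depth was not analysed here, and the files and labels do not state the scale of the authors' score. Width chose the broad peaks, and score, position and neighbours come from the same peak calls. All values are therefore descriptions of the list, and no test was made. The 95% intervals given for shares are exact binomial intervals that treat peaks as independent.

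H3K4me1 is a mark of enhancers and of the flanks of active promoters, and in flies much of it is placed by the methyltransferase Trithorax-related. A peak caller joins neighbouring enriched positions into 1 interval, so a broad peak can come from several marked elements side by side. Drosophila chromosomes also carry dispersed repeats, families of near-identical copies of mobile elements inserted at many places. No sequence or annotation of release 5 was used here, so no gene or repeat is named.

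Broad peaks were few but held much of the called sequence. The other broad peaks made up 4.60% of the arm peaks and 23.5% of the bases in arm peaks, 2.09 of 8.87 Mb. Their median width was 5160 bases, with quartiles of 4649 and 6154 and a widest peak of 19468 bases. Of the 369, 155 (42.0%) were under 5000 bases, 25 were 8000 bases or wider and 11 were 10000 bases or wider. Just inside the limit, 11 peaks of 4007 to 4099 bases had a median score of 59.6 (39.2 to 92.9). Just outside, 22 peaks of 3901 to 3996 bases had a median score of 82.7 (39.1 to 231). The limit of 4000 bases thus cut through a continuous range of widths and scores.

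Every large arm carried broad peaks and chromosome 4 carried none. On X, 62 of 1029 peaks were other broad peaks, a share of 6.03% (interval 4.65 to 7.66). On 3L, 82 of 1643 were, a share of 4.99% (3.99 to 6.16). The shares were 4.58% on 2L (3.50 to 5.89), with 58 of 1265, and 4.35% on 2R (3.49 to 5.36), with 84 of 1930. On 3R, 83 of 2126 were, a share of 3.90% (3.12 to 4.82). The interval of X overlapped that of every other arm, including 3R at the low end of the order. Counted per length instead, the order differed, with 3.97 other broad peaks per Mb on 2R, 3.35 on 3L, 2.98 on 3R, 2.77 on X and 2.52 on 2L. None of the 26 peaks of chromosome 4 reached 4000 bases (0%, interval 0 to 13.2), and its widest had 3148 bases. Typical widths were much alike, with medians from 5049 bases on 2L to 5270 on 3R. Median scores were 132 on X, 128 on 2L, 106 on 3L, 104 on 3R and 103 on 2R.

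Broad peaks stood high in the list by score. Their median score was 113 (quartiles 75.4 and 154), and that of the narrower peaks was 17.1 (11.5 and 31.4). The median score percentile among arm peaks was 94.8 for the other broad peaks, and the lowest was 65.9. In the highest-scoring 10.0% of the arm peaks lay 261 of the 369, or 70.7%. Since width and score come from the same calls, nothing is read from that count. Width alone did not order them. Score and width had a Spearman's rho of 0.35 across the 369 and of 0.79 across the narrower peaks. The ranges of width were unlike, with quartiles of 4649 and 6154 bases for the 369 and of 326 and 1111.25 bases for the narrower peaks. The size of rho is therefore not compared between them. These correlations run over peaks of 1 list, which share libraries and local background, and are given as descriptions. Of the 100 highest-scoring arm peaks, 34 were other broad peaks, 19 were of the recurring width and 47 were narrower.

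**Figure D1:**
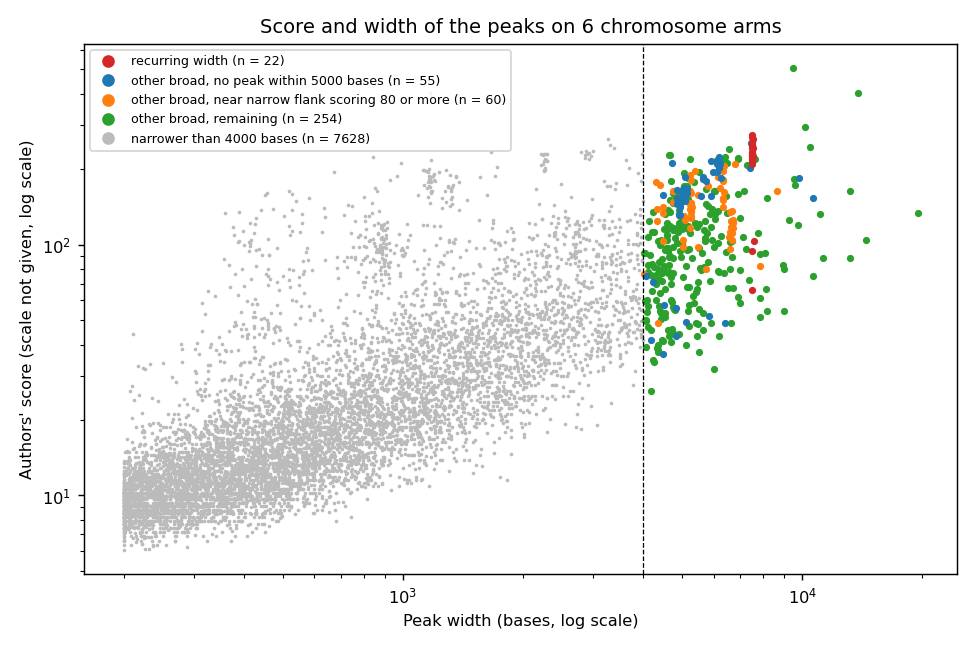
Each point is 1 peak of the 6 arms, with its width in bases on the horizontal axis and the authors' score on the vertical axis, both on log scales. The dashed line marks 4000 bases. The 22 peaks of the recurring width (red) form a vertical streak whose upper 19 peaks score between 211 and 274, and the 55 isolated broad peaks (blue) lie mostly above a score of 140.

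The 22 peaks of the recurring width fell into a larger, high-scoring set and 3 low-scoring peaks. Their widths were alike by the rule that chose them, with a median of 7488.5 (SD 22.3) and a highest value of 7561, and 17 lay under 7500 bases. They fell on 2L (10), 2R (5), 3R (4) and 3L (3), with none on X. Of the 8019 arm peaks, 1265 lay on 2L, 1930 on 2R, 2126 on 3R, 1643 on 3L and 1029 on X. With only 22 peaks, nothing is read from their split over the arms. On 2L they lay at 347886-355400, 1220153-1227645, 1678992-1686529, 10156341-10163813 and 11713538-11721026, with scores of 243, 220, 264, 247 and 226. Further along 2L they lay at 15446075-15453572, 19347512-19355017, 20303154-20310648, 20576245-20583737 and 21347582-21355068, with scores of 227, 250, 274, 232 and 253. All 10 of the 2L peaks thus scored over 200. The 2R peaks split into a higher and a lower set. At 14375362-14382846 and 15603390-15610886 the scores were 257 and 211. At 15302941-15310501, 1596795-1604271 and 18425362-18432844 they were 104, 94.3 and 65.8. On 3L the peaks lay at 8491398-8498884, 22548902-22556385 and 22610296-22617763, with scores of 217, 243 and 213. On 3R they lay at 11444491-11452016, 13401083-13408570, 26505277-26512755 and 27823762-27831236, with scores of 226, 234, 269 and 228. Over all 22 the median score was 230 and the coefficient of variation 25.7%. With the 3 low scores of 2R set apart after their values were seen, the other 19 ran from 211 to 274 with a median of 234 (SD 19.1) and a coefficient of variation of 7.99%. Without such trimming, 19 of the 22 reached a score of 200. The 15 other broad peaks between 7000 and 8000 bases wide had a median score of 108 and ran from 51.7 to 254, and 4 of them reached 200.

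The surroundings followed the same split. Of the 19 high-scoring peaks of the recurring width, 18 had no other peak within 5000 bases and 16 had none within 10000 bases on either side. Their median gap to the nearest peak was 20345 bases. The exception was 2L:1678992-1686529, with a 207-base peak 1755 bases away. Of all arm peaks, 11.0% had no other peak within 5000 bases and 6.65% had none within 10000 bases. The 3 low-scoring peaks on 2R had their nearest peak 262, 1066 and 1578 bases away. Peaks covered 8.28% to 41.5% of the 10 kb on each side of them. Around the 19, the median share covered was 0%, with a highest value of 31.1%. Only 1 pair of recurring-width peaks followed each other in the list, the 2 on 3L from 22548902 onward, with 53910 bases between them and no peak in that stretch. Their positions were spread along the arms, with 6, 4, 4, 1 and 7 in successive sections of 20% from the distal to the proximal end of the peaks of each arm. Of the narrower peaks of the large arms, these sections held 26.7%, 19.9%, 18.5%, 16.9% and 18.0%. On the centromere side, none of the 22 lay in the last 1 Mb of the list (0%, interval 0 to 15.4). Of all peaks of the large arms, 2.83% lay there, so nothing is read from that absence.

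Most of the other broad peaks had close neighbours. Of the 369, 282 (76.4%, interval 71.8 to 80.7) had another peak less than 2000 bases away, where 79.6% of all arm peaks did. Close peaks were on both sides of 107, on 1 side of 175 and on neither side of 87. The share was thus near that of the list as a whole. Peaks of 2000 to under 4000 bases had a share of 84.3% (81.6 to 86.8) and peaks under 1000 bases one of 78.5% (77.4 to 79.5), so the share did not grow steadily with width. Among the recurring-width peaks it was 18.2% (4 of 22, interval 5.19 to 40.3). The median gap to the nearest peak was 18142 bases for the recurring width, 483 bases for the other broad peaks and 368 bases for the narrower peaks.

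**Figure D2:**
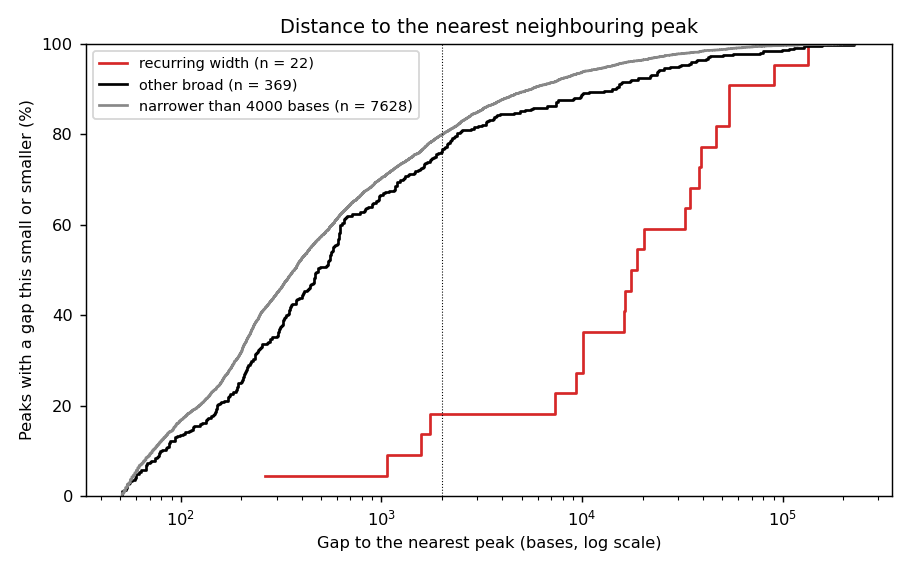
The horizontal axis gives the gap to the nearest peak in bases on a log scale, and the vertical axis the percentage of peaks with a gap that small or smaller. The curves of the other broad peaks (black, n = 369) and the narrower peaks (grey, n = 7628) run close together, while that of the recurring width (red, n = 22) lies far to the right, with a median of 18142 bases. The dotted line marks 2000 bases.

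The neighbours themselves were mostly small. The nearest peak of an other broad peak had a median width of 740 bases and a median score of 28.0. For the narrower peaks, these medians were 607.5 bases and 17.9. The nearest peak of an other broad peak was narrower than it in 359 of 369 cases and itself broad in 22. In 261 of the 369 cases the broad peak was both wider and higher-scoring than the peaks on either side, and so were 514 of the 773 peaks of 2000 to under 4000 bases. Since width chose the broad peaks, nothing is read from these counts. In the 10 kb on each side, peaks covered 17.1% of the bases at the median (quartiles 4.83 and 40.5), and around the narrower peaks 18.4% (7.86 and 31.5). The medians were thus close, and the broad peaks had the wider spread. When peaks less than 500 bases apart were joined, 187 of the 369 (50.7%) merged with a neighbour. Of all arm peaks 4563 of 8019 (56.9%) did, so the broad peaks did not merge more often than the list. The merged domains of the broad peaks had a median width of 7399 bases, and the broad peak made up 75.4% of its domain at the median. The widest such domain, 3R:11830290-11850463, measured 20174 bases and joined 2 peaks, and 3R:20416471-20436094 measured 19624 bases and joined 4.

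Next, 3 kinds of surroundings were distinguished among the 369, a division made after the values were seen. Isolated peaks had no other peak within 5000 bases and numbered 55, or 14.9%, where 11.0% of all arm peaks were isolated. Paired peaks had, as their nearest peak, one less than 1000 bases away, under 2000 bases wide and scoring 80 or more. They numbered 60, or 16.3%, where 2.39% of all arm peaks met the same conditions. The remaining 254, or 68.8%, were neither. Of the peaks of 2000 to under 4000 bases, 14 of 773 (1.81%) were paired. Median scores were 160 for the isolated peaks (quartiles 143 and 185), 138 for the paired peaks (117 and 163) and 94.4 for the remaining peaks (66.6 and 127). Spearman's rho of score and width was 0.63 in the isolated, -0.03 in the paired and 0.34 in the remaining peaks.

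Isolated broad peaks were concentrated at a few widths. The classes of width used here were drawn around these same peaks after their values were seen. The intervals do not allow for that choice, and the shares are descriptions only. Of the 55, 27 (49.1%, interval 35.4 to 62.9) were at least 4800 and under 5200 bases wide, and 8 (14.5%, 6.50 to 26.7) at least 6100 and under 6300 bases. Of the 314 broad peaks with a nearer neighbour, 40 (12.7%, 9.26 to 16.9) and 9 (2.87%, 1.32 to 5.37) fell in these classes. The 8 isolated peaks of 6118 to 6249 bases scored within a narrow range, from 184 to 224, a coefficient of variation of 6.11%. They lay at 2L:6876833-6882968, 2R:4665443-4671645, 2R:13063928-13070054, 2R:18467920-18474145, 3R:1572744-1578926, 3R:12582100-12588280, 3R:27105162-27111279 and X:22022349-22028597. Their nearest peaks were between 9106 and 107078 bases away. All 8 scored higher than the median isolated peak.

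The 27 isolated peaks of the narrower class fell into 2 widths. There were 12 from 4819 to 4941 bases and 15 from 5041 to 5139 bases, with none in between. Of the 27, 24 scored from 131 to 187, and the 3 exceptions scored 43.1 (2R:8562189-8567007), 49.4 (2R:6013400-6018521) and 55.8 (3L:2500869-2505711). The group had 9 peaks on 2L, 7 on 2R, 5 on 3R, 5 on X and 1 on 3L. The broad peak farthest from any other peak belonged to it. It was 2L:17820011-17825149, with 5139 bases and a score of 161, and its neighbours were 320402 and 226781 bases away. Next came 2R:1105270-1110356, with 5087 bases, a score of 165 and a gap of 156087 bases. 3R:6891352-6897001 followed with 5650 bases, a score of 182 and a gap of 128276 bases. X:4178588-4183688 had 5101 bases, a score of 162 and a gap of 114117 bases, and 3R:12582100-12588280 had 6181 bases, a score of 215 and a gap of 107078 bases. These 5, the most isolated of the 369, scored between 161 and 215, above the median of 113. Of the recurring-width peaks, 2L:15446075-15453572, with a score of 227, had a gap of 132870 bases, wider than 3 of these 5.

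Scores of isolated peaks were set beside those of the rest in each class of width. Among the other broad peaks, the isolated ones had a median score of 160 and the rest 104. Among the narrower peaks, the 809 isolated ones had a median of 14.2 and the rest 17.5. In the neighbouring class of 2000 to under 4000 bases the medians were 58.3 (n = 44) and 54.7 (n = 729). These are descriptions of 1 list, and the differences were not tested.

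**Figure D3:**
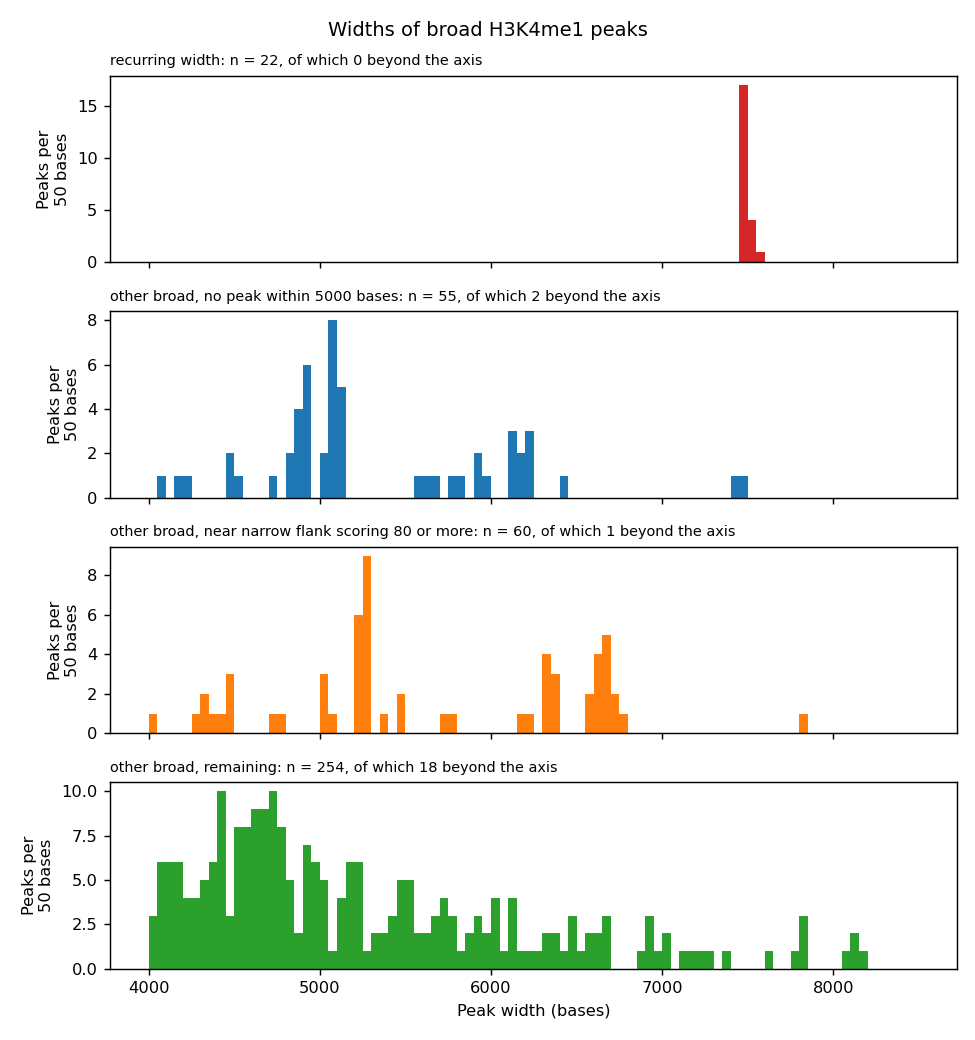
Each panel counts peaks in classes of 50 bases of width, from top to bottom for the recurring width (n = 22), the isolated (n = 55), the paired (n = 60) and the remaining other broad peaks (n = 254). The number beyond the axis is given in each panel. Isolated peaks pile up from 4819 to 4941, from 5041 to 5139 and from 6118 to 6249 bases, paired peaks from 5232 to 5286 and from 6573 to 6783 bases, and the remaining peaks spread more evenly.

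Many of the paired peaks recurred as whole arrangements of broad peak, gap and flank. The classes of width used here were drawn after the values were seen. The narrow ranges of broad-peak width therefore follow in part from the classes. The classes from 5200, 6100 and 6500 bases held 38 of the 60 paired peaks. In the class from 5200 to under 5300 bases, 15 of 22 peaks were paired and none was isolated. These 15 were 5232 to 5286 bases wide (SD 15.8) and scored from 116 to 190. Their flanks were 1130 to 1197 bases wide (SD 17.6), lay across a gap of 551 to 638 bases and scored from 155 to 200. The flank scored higher than the broad peak in 13 of the 15, and in 33 of all 60 paired peaks. From end to end the arrangement spanned 6929 to 7090 bases (SD 50.3). The flank was on the left in 7 and on the right in 8, so the arrangement occurred in both orientations. Of all arm peaks, 49.9% had a peak less than 5000 bases away on both sides. Of these 15, 13 had no peak that near on the far side, as did 41 of all 60 paired peaks. Examples were X:11529291-11534535, with a flank of 1167 bases and a score of 181 across a gap of 634 bases on the left, and 2L:19147356-19152641, with a flank of 1197 bases and a score of 191 across 607 bases on the right.

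Another arrangement lay from 6500 to under 6800 bases, where 14 of 22 peaks were paired and none was isolated. In 13 of the 14 the broad peak was 6573 to 6709 bases wide, the gap 209 to 323 bases and the flank 356 to 442 bases wide, with a total of 7245 to 7398 bases. Flank scores of these 13 were from 87.8 to 138. The exception was X:21594847-21601629, with 6783 bases, a score of 209 and a 968-base flank scoring 187 across a gap of 56 bases. Of all 14, the flank was on the left in 6 and on the right in 8, and the far side was free of peaks for 5000 bases in 13.

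A further one lay from 6100 to under 6400 bases, where 9 of 28 peaks were paired and 8 were isolated. In 7 of the 9 paired peaks the width was 6154 to 6371 bases, the gap 304 to 356 bases and the flank 801 to 874 bases wide, with a total of 7322 to 7541 bases. The other 2 had flanks of 367 and 583 bases. From 4200 to under 4500 bases 8 of 43 peaks were paired, of which 6 had flanks of 1167 to 1300 bases across gaps of 381 to 612 bases and totals of 5926 to 6182 bases. Across all 60, the flank was on the left in 29 and on the right in 31, and the pairs lay on 2R (16), 3L (12), 3R (11), X (11) and 2L (10). The flank outscored the broad peak in 4 of the 14 paired peaks from 6500 bases, 2 of the 9 from 6100 and 6 of the 8 from 4200. The far side was free of peaks for 5000 bases in 6 of those 9 and 3 of those 8. The subsets named within the classes were likewise picked after their values were seen. Similar gaps and flanks also lay beside other widths. An example was 3L:11257558-11263351, with 5794 bases, a gap of 328 bases and a flank of 861 bases. None of the 22 recurring-width peaks was paired.

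**Figure D4:**
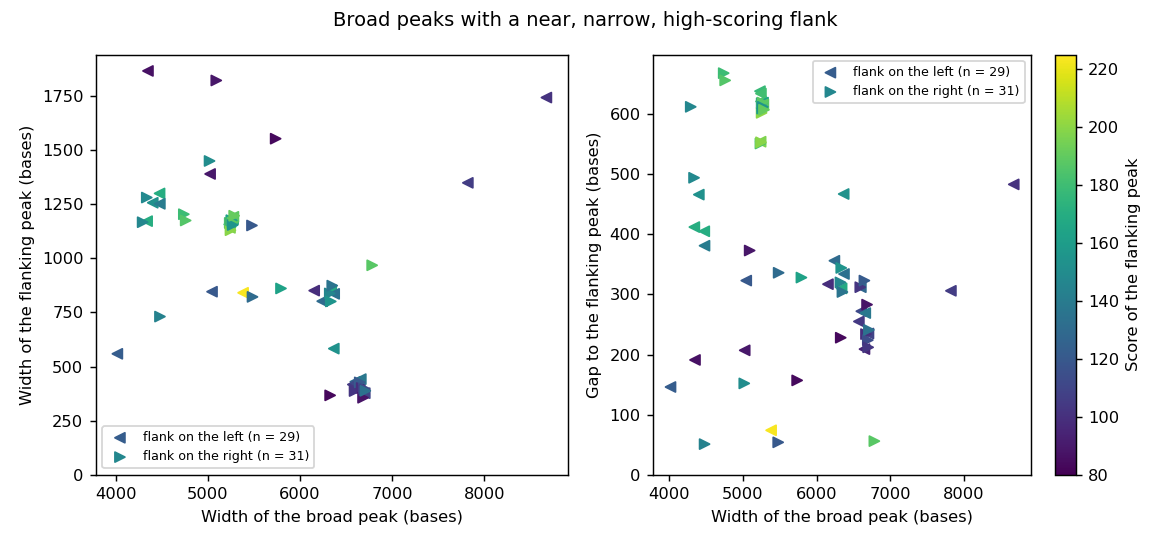
Both panels show the 60 paired peaks, with the width of the broad peak on the horizontal axis and, on the vertical axis, the width of the flanking peak (left panel) or the gap between them (right panel), all in bases. Triangles point to the side of the flank, and colour gives its score. Tight groups of points lie near 5232 to 5286 bases, with flanks of 1130 to 1197 bases, and near 6573 to 6709 bases, with flanks of 356 to 442 bases.

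The remaining 254 peaks included the largest ones. Of the 25 peaks of 8000 bases or more, 22 were among them, 2 were isolated and 1 was paired. The widest, 3R:11830996-11850463, had 19468 bases, a score of 134 and a 531-base peak 175 bases away. 3L:2565906-2580342 had 14437 bases and a score of 105, and a broad peak followed 614 bases after it. 3L:3377910-3391690 had 13781 bases and a score of 403, with a 221-base peak 1943 bases to the left and a 6046-base peak 1874 bases to the right. The widest of 2L, 2L:494707-507884, had 13178 bases, a score of 164 and a 1003-base peak 105 bases away. X:17180711-17193878 had 13168 bases, a score of 88.5 and no other broad peak within 941271 bases. The widest of 2R, 2R:1614665-1625749, had 11085 bases and a score of 133, and 12 other peaks reached into the 10 kb on each side of it and covered 81.1% of those bases. That was the most densely surrounded of the 369. Of the 10 widest, 9 had another peak within 2000 bases, where 79.6% of all arm peaks did, so nothing is read from that count. The exception was 3L:5104550-5115164, with 10615 bases, a score of 153 and no peak within 12877 bases. Only 2 of the 10 widest were also among the 10 highest-scoring, 3L:3377910-3391690 and X:21405517-21415995.

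Among the 10 highest-scoring other broad peaks, 8 had another peak within 2000 bases, near the share of 79.6% among all arm peaks. The highest was 3R:27895661-27905153, with a score of 506. It ended the list of 3R at the telomeric end, and a 529-base peak lay 164 bases before it. It was 1 of 4 other broad peaks at an end of the list of an arm, the others being 2L:121-5590, 2L:23004636-23009508 and 3L:24457747-24464113. After 3L:3377910-3391690 came 3R:25587314-25597455, with 10142 bases and a score of 296. The highest of 2L was 2L:12933898-12941351, with 7454 bases and a score of 254. Its width lay just under the recurring range, and its nearest peak was 30476 bases away. Another isolated peak close to that range was 3R:15531277-15538698, with 7422 bases, a score of 202 and a gap of 15253 bases. The highest of 2R was 2R:2234415-2239143, with 4729 bases, a score of 213 and a gap of 15800 bases. On X, 4 peaks were in the top 10, with scores from 224 to 246, and 3 of these were under 7000 bases wide.

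Peaks with low scores were of modest width. The 10 lowest-scoring other broad peaks scored from 26.2 to 39.2 and were 4065 to 5999 bases wide. Of them, 8 had a peak within 2000 bases, again near the 79.6% of all arm peaks. The lowest was 3R:19007078-19011271, with 4194 bases, a score of 26.2 and a 2377-base peak scoring 39.7 at 115 bases. It was followed by 3R:16776520-16782518, with a score of 31.9, and 3L:19067304-19071550, with 4247 bases and a score of 34.2. None of the 369 scored below the median of the arm peaks.

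Distances between broad peaks were measured among the 369, with the recurring-width peaks left out. The distance from an other broad peak to the nearest other one had a median of 69678 bases, with quartiles of 14081 and 163858. Within 2000 bases lay another broad peak for 38 of the 369 (10.3%, interval 7.39 to 13.9), and within 50 kb for 158 (42.8%, 37.7 to 48.0). By arm, the median distance was 47882.5 bases on 3L, 59556 on 2R, 71294 on X, 106367 on 3R and 116026 on 2L. No such share was computed for an equal number of other arm peaks, so grouping beyond that of the whole list was not tested. The 3 kinds of surroundings were also set side by side, although the absence of any peak within 5000 bases, which defines the isolated ones, itself lowers their share. Within 50 kb of another broad peak lay 12 of the 55 isolated peaks (21.8%), 18 of the 60 paired peaks (30.0%) and 128 of the 254 remaining peaks (50.4%). The closest pair, 2R:7073629-7077993 and 2R:7078081-7082196, was separated by 87 bases, and its peaks scored 79.97 and 83.3. The next were 110 bases apart at 2R:7514050-7520098 and 2R:7520209-7527117, scoring 127 and 159, and 150 bases apart at 3L:20179996-20185165 and 3L:20185316-20190056, scoring 119 and 44.6. At 2L:8691923-8698381 and 2L:8698564-8705567 the gap was 182 bases, and at X:9534133-9539878 and X:9540114-9546509 it was 235 bases. The scores were 93.6 and 128 in this pair of 2L and 146 and 224 in that of X. Of these 5 pairs, the closest differed least in score and that of X most.

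Chained at distances under 50 kb, the 369 formed 65 runs of 2 or more, which held 158 peaks, and 211 stood alone. Runs of 4 or more numbered 9 and held 40 peaks. The longest in number was X:10358144-10439753, with 6 broad peaks of 4531 to 8159 bases among 13 peaks that covered 50.9% of 81610 bases. On 2R, 5 broad peaks of 4032 to 5794 bases lay at 8812401-8896592 with 21 narrower peaks, which together covered 50.1%. X:3247665-3340731 held 5 broad peaks and 36 narrower ones and was covered to 67.0%. The run of 4 at 3R:25580961-25616836 was the most compact of these 9, with 84.0% of 35876 bases in peaks and only 2 narrower peaks. Its scores ran from 83.1 to 296. At 2R:7492856-7554721, 4 broad peaks lay among 19 peaks covering 61.7%. No peak of the recurring width lay inside these 5 runs. They cover little of the 119.8 Mb spanned by the peaks of the arms, so nothing is read from that absence. The runs thus ranged from a few broad peaks in near contact to broad peaks among many narrow ones.

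Long stretches lacked any of the 369. In 31 of 364 steps from one other broad peak to the next, the distance was over 1 Mb. The longest was 3039138 bases on X, between 6345127 and 9384266, and held 44 peaks under 4000 bases. Of 122 windows of 1 Mb on the 5 large arms, 12 held none of the 369, of which 1, on 2L, held a recurring-width peak. The median window held 2 and the fullest held 11. The fullest were the first 1 Mb of 3L, with 11 of 177 peaks, and X from 3000001 to 4000000, with 11 of 129 peaks. The counts of other broad peaks and of all peaks in a window had a Spearman's rho of 0.61 over the 122 windows. By arm it ran from 0.23 on 3R to 0.82 on X. The count of all peaks included the broad ones, so a positive rho was in part built in. Windows of an arm also share libraries and neighbours, so the correlation is a description. Among the 369, with the recurring-width peaks left out, farthest from the next were 3R:8745958-8751095, at 1273631 bases, and 3L:11257558-11263351, at 1197913 bases. Then came X:11529291-11534535 and X:12613345-12617516, which lay 1078809 bases apart, and 2L:19147356-19152641, at 1006710 bases. Of these 5, 1 was isolated, 2 were paired as described above with flanks of 1167 and 1197 bases, and 3L:11257558-11263351 was paired with an 861-base flank scoring 164.

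Along the arms, the distal 20% of the span held the most broad peaks in the 5 large arms together. It held 114 of the 369 (30.9%) and 2027 of the 7602 narrower peaks there (26.7%), and the other sections of 20% held between 16.5% and 18.2% of the broad and between 16.9% and 19.9% of the narrower peaks. The arms did not share this pattern. This section held 36 of 82 on 3L (43.9%), 27 of 62 on X (43.5%) and 20 of 58 on 2L (34.5%). It held 25 of 83 on 3R (30.1%) and 6 of 84 on 2R (7.14%). The narrower peaks of 2R were also scarcer there, with 316 of 1841 (17.2%). In the last 1 Mb on the centromere side lay 15 of the 369 other broad peaks (4.07%, interval 2.29 to 6.62), where 2.83% of all peaks of the large arms lay.

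**Figure D5:**
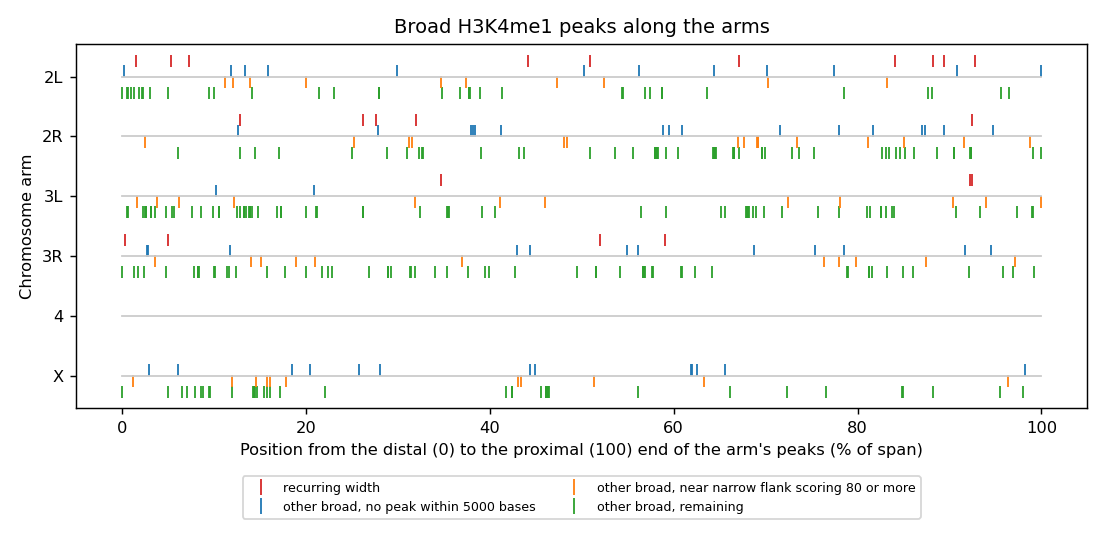
Each mark is 1 broad peak, placed by its position from the distal (0) to the proximal (100) end of the peaks of its arm, in percent of that span, with 1 row per arm and a colour and level for each kind. Marks crowd in the distal 20% of 3L and X, and chromosome 4 has no mark. The narrower peaks, which are not drawn, were also most frequent in that section of 3L (34.9%) and X (41.1%). Isolated peaks (blue) are 16 of the 84 other broad peaks on 2R, 13 of 62 on X and 12 of 58 on 2L. They are 12 of 83 on 3R and only 2 of 82 on 3L. Recurring-width peaks (red) are scattered along the large arms other than X.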

How the data were processed

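H3K4me1 ChIP-seq of S2-DRSC cells comprised 2 ChIP and 2 input libraries, per the labels. The authors deposited 1 peak list. Per the file headers it is on FlyBase release 5, with MACS as source. The submitters' processing notes name CASAVA 1.7.0.2 and 1.7.0.3, BWA, MACS2 and BDGP5, without roles. The files and labels state neither the pooling of replicates nor the peak threshold nor the handling of reads that match several places. The score deposited by the authors has no stated scale and was used only within the list. Multiply matching reads would bear on scores at repeated sequence. Starts in the file count from 0, judged by a lowest start of 0, and were raised by 1 for printing.

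Gaps, flanks, ranks, runs and joined domains were computed with Python 3.11.15, numpy 2.4.6, pandas 2.3.3 and scipy 1.17.1 and drawn with matplotlib 3.10.9. The gap, flank and joining steps were tested on simulated data. Arm ends are the first and last peak, and the distal end is the telomeric one. Named by rule were the widest and highest-scoring of each arm, the 10 widest, 10 highest-scoring and 10 lowest-scoring, the 5 closest pairs, the 5 farthest from a broad peak and from any peak, the 5 fullest runs and all recurring-width peaks. Width minimum, gap, distance, joining and the width window were varied one at a time. Other regions were named after their values were seen. The broad class, the recurring range and the settings were chosen with earlier results of these data known. The only reference at hand, on Release 6, was not used, and no test was made because all measures come from the calls that chose the peaks.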

Additional observations from a re-analysis of the deposited data

Results flagged for a closer look

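Broad peaks were also present on sequences outside the arms, which the comparisons above leave out. There were 30 peaks of 4000 bases or more there, on 6 sequences. They were 9 of the 101 peaks of 2RHet, 8 of 50 on 3RHet, 6 of 361 on U and 5 of 91 on 3LHet. XHet held 1 among 3 peaks and YHet 1 among 7. None of the 19 peaks of 2LHet or the 2522 of Uextra was this wide, and their widest had 3065 and 1774 bases. On the arms, 391 of 8019 peaks were this wide, the recurring width included. The 30 are listed because they are data not used above. Their presence tests nothing, since no level in input was at hand to set them against. The 30 had a median width of 5227.5 bases and a median score of 161 (77.3 to 247). Within the recurring range lay 2 of them, with 7499 bases and a score of 247 on 3LHet and 7504 bases and a score of 239 on 3RHet. Of the 30, 7 were at least 4800 and under 5200 bases wide, and 4 at least 6100 and under 6300.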

How the results depend on the processing

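Values were recomputed 44 times with 1 setting changed, of which 21 stayed within the interval or spread of the value reported (for counts, within 1.5 times) and 23 moved beyond it. For the median score percentile, that spread was 1 SD over the peaks and not an error of the median. Staying within it therefore says little. This median was 94.8 among arm peaks and 90.3 in the whole list, which counted as within. None of these values came from a test. The share with another peak close by was 66.7% at a gap of 1000 bases, 85.1% at 5000 bases and 63.4% when peaks scoring below the arm median were left out. The share within reach of another broad peak was 30.1% at 20 kb, 57.2% at 100 kb, 59.1% with a width minimum of 3000 bases and 32.7% with one of 5000 bases. With a minimum of 3000 bases, the broad share of peaks was 6.25% on 2L, 8.24% on 2R, 8.28% on 3L, 7.15% on 3R and 9.43% on X. With 5000 bases it was 2.45% on 2L, 2.59% on 2R, 2.68% on 3L, 2.45% on 3R and 3.60% on X. After joining peaks under 500 bases apart it was 10.7% on 2L, 12.2% on 2R, 12.8% on 3L, 11.3% on 3R and 15.6% on X. X kept the highest share in these settings. The recurring-width share with a close peak was 4.55% at 1000 bases. These moves follow from the construction of the settings, which admit other distances or other peaks. The settings for isolated and paired peaks were added after seeing the data. The isolated share in the class from 4800 bases was 43.7% and 46.3% at 2000 and 10000 bases, and paired peaks numbered 69 and 51 with flank scores of 60 and 100. No paired analysis was possible because the 1 list carries no value per library, and no replicate could be left out for the same reason. Read depth was not analysed here.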
